A study of Mus musculus with 6 samples.

Results

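The genes described here are 9 transcription factor genes of the epidermal lineage, namely Trp63, Klf4, Grhl1, Grhl2, Grhl3, Ovol1, Ehf, Elf3 and Ets1, and the places near them where p65 was found by chromatin immunoprecipitation followed by sequencing (ChIP–seq). A peak was assigned to a gene when, of all curated mouse RefSeq start sites, that gene's lay nearest to the middle of the peak, and peaks within 50 kb of a start site of the 9 genes were listed as well, whichever gene owned them. By this rule the 9 genes owned 38 of the 8525 peaks of the adult list, 21 of the 4169 peaks of the aged/IgG control list and 34 of the 6014 peaks of the list for aged/anti-IL-17A/F. Peaks that overlapped across lists were merged into loci, of which 42 of 9513 belonged to the 9 genes.

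The epidermal cells came from C57bl/6J mice and were separated from the dermis with trypsin. Adult mice were untreated and 17 to 25 weeks old, whereas the aged mice, 80 to 90 weeks old, were treated for 12 weeks, starting at an age of 73 weeks, with either an IgG control or anti-IL-17A/F antibodies. The alignments of 4 mice were merged in each condition before peaks were called, so that every condition is 1 list with no replicate, no spread between animals is known and no test between conditions was possible. All differences below are therefore descriptions of 3 pooled libraries, and the read depth behind a single peak cannot be recovered from the lists.

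The lists are named by their GEO labels, and those of the aged mice are shortened below to IgG control and anti-IL-17A/F. The names of the individual peaks inside the list labelled adult all carry the prefix "Treated" (8525 of 8525), as do those in the list labelled anti-IL-17A/F (6014 of 6014), whereas those in IgG control carry the prefix "Control". The study's own annotation of its adult peaks, as far as it was at hand, holds the names and positions of the list labelled adult, so that the study used this list as adult. Where the prefix comes from is not given in the sources used here. If the lists were exchanged, each value given for adult would belong to anti-IL-17A/F and the reverse, and the number of assigned peaks would read 34 in adult and 38 in anti-IL-17A/F. The IgG control values do not depend on this.

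p65 (RelA) is a subunit of NF-κB, a transcription factor that is held in the cytoplasm by inhibitor proteins and enters the nucleus when cytokine receptors, among them those for IL-17, are engaged. p63, encoded by Trp63, establishes and maintains stratified epithelia, and its gene has an upstream promoter for the TAp63 forms and an internal promoter for the ΔNp63 forms that prevail in basal keratinocytes. Klf4 is required for the skin barrier, the grainyhead-like factors Grhl1, Grhl2 and Grhl3 act in epithelial junctions, barrier formation and wound closure, Ovol1 restrains the proliferation of progenitors as they begin to differentiate, and Ehf and Elf3 are epithelial members of the ETS family, to which Ets1 also belongs.

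The sequences under the peaks are shown first. For each gene, the strongest peak that held a match to the NF-κB consensus within 100 bp of its summit was taken (for Ehf, the strongest intronic one), and the stretch around that match is printed 5′ to 3′ on the strand of the match, with the match in capitals. All positions are on GRCm38.p6, the assembly of mm10. The windows are, in order, chr16:25746915-25746964 (plus strand, 54976 bp upstream of the internal Trp63 start site), chr4:55903139-55903188 (plus strand, 370689 bp upstream of Klf4), chr4:135598511-135598560 (plus strand, 24904 bp upstream of Grhl3), chr19:5538891-5538940 (plus strand, 21659 bp downstream of the Ovol1 start site), chr2:103274899-103274948 (minus strand, in an Ehf intron, 28272 bp downstream of the start site), chr1:135248539-135248588 (plus strand, 9908 bp downstream of the Elf3 start site) and chr9:32743856-32743905 (minus strand, in an Ets1 intron, 47844 bp downstream of the second start site).
Trp63: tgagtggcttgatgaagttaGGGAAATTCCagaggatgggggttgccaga
Klf4: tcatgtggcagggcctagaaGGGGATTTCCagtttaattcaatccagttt
Grhl3: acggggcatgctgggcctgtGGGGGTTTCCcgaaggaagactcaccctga
Ovol1: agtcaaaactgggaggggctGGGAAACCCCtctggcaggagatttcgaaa
Ehf: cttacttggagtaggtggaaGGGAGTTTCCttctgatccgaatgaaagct
Elf3: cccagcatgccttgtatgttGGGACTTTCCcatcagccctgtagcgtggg
Ets1: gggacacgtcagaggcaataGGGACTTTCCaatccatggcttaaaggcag

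The matches of Elf3 and Ets1 are the same 10 letters, GGGACTTTCC. Those of Trp63, Klf4, Ehf, Elf3 and Ets1 lay inside a peak in all 3 lists, and those of Grhl3 and Ovol1 inside a peak in adult and anti-IL-17A/F. The further match counted in the Grhl3 window overlaps the printed one, shifted by a single base, and is not a separate site. No assigned peak of Grhl1 or Grhl2 held one. The RefSeq promoter table had entries for 4 of the 9 genes (Klf4, Grhl1, Grhl3 and Elf3). The promoter of Elf3 is shown because it held a match to the consensus and lay under a peak in all 3 lists (chr1:135258423-135258722, minus strand, from 250 bases before to 50 bases after the start site). The capitals again mark the match, which on the printed strand is the reverse complement of the consensus.
Elf3 promoter: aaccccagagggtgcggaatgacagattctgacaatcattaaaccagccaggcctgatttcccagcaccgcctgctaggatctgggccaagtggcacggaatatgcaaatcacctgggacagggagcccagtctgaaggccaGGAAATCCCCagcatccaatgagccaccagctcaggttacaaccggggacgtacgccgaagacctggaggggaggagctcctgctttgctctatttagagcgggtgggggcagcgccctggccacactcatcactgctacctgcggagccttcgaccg

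p65 peaks were assigned to 9 of the 9 genes in adult, 8 in IgG control and 9 in anti-IL-17A/F. The gene without a peak in IgG control was Grhl1. Of 21000 protein-coding genes, 23.0% had at least 1 assigned peak in adult, 12.9% in IgG control and 17.4% in anti-IL-17A/F. A gene with a long stretch of DNA to itself collects more peaks by this rule, and the 9 genes differed in this respect from 28.8 kb for Ovol1 to 661 kb for Klf4. Per 100 kb of the DNA nearest to their start sites, the 9 genes together had 2.13 peaks in adult, 1.18 in IgG control and 1.91 in anti-IL-17A/F, against 0.313, 0.153 and 0.221 over the assembly. By gene, this density in adult ran from 1.34 for Ets1 to 6.94 for Ovol1.

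**Figure D1:**
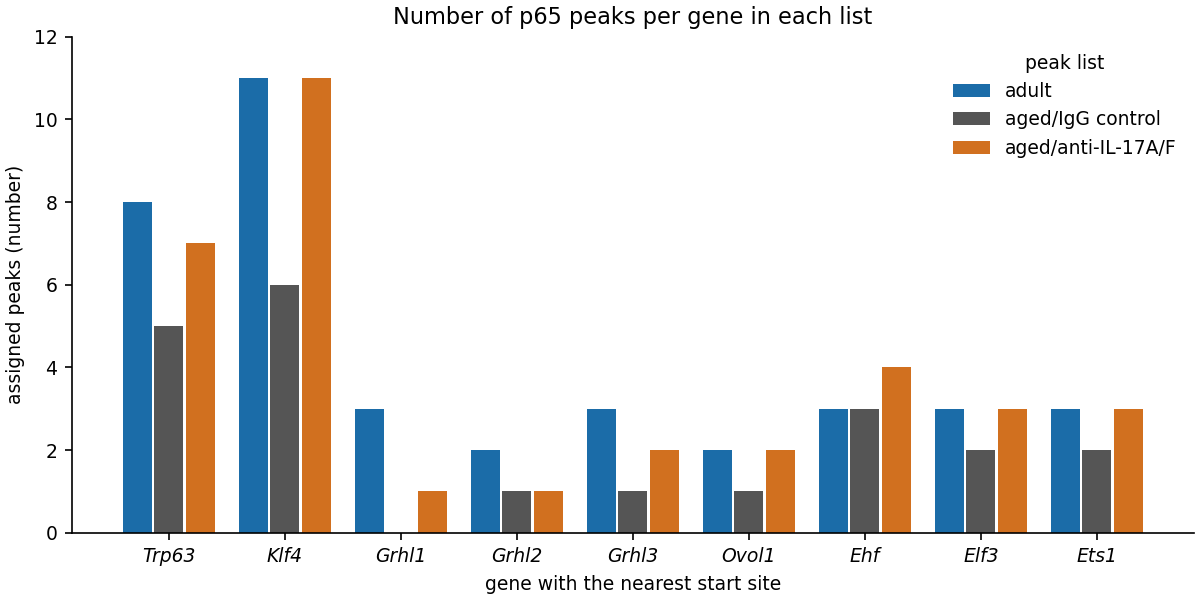
Number of p65 peaks assigned to each of the 9 genes (bars, from 0) in the lists labelled adult (blue), IgG control (grey) and anti-IL-17A/F (orange), each a pool of 4 mice. Klf4 had the most peaks in every list (11, 6 and 11) and Grhl1 had none in IgG control.

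Klf4 and Trp63 had the most peaks. Klf4 had 11 peaks in adult, 6 in IgG control and 11 in anti-IL-17A/F. Among all protein-coding genes with a peak, for which the median was 1 peak, it ranked 3rd by number in adult, 3rd in IgG control and 1st in anti-IL-17A/F, ties included. Trp63 had 8, 5 and 7 peaks in the same order of lists. The remaining 7 genes had between 0 and 4 in any list.

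Peaks of the 9 genes were far from start sites more often than peaks at large. In adult, 13.2% of their peaks had their middle within 1 kb of the start site against 36.9% of the whole list, in IgG control 14.3% against 33.1%, and in anti-IL-17A/F 14.7% against 33.7%. Their median distance was 35.3 kb in adult against 5.16 kb for all adult peaks, 36.1 against 6.77 kb in IgG control and 33.2 against 6.64 kb in anti-IL-17A/F. The middle of every assigned peak was intergenic or intronic. A peak lay within 1 kb of a start site of Ehf, Elf3 and Ovol1 in all 3 lists, of Ets1 in adult and anti-IL-17A/F and of Grhl1 in adult. No assigned peak lay there for Trp63, Klf4, Grhl2 or Grhl3 in any list. Klf4 and Trp63 held 19 of the 38 adult, 11 of the 21 IgG control and 18 of the 34 anti-IL-17A/F peaks, with 0 within 1 kb. For the other 7 genes, 5 of 19, 3 of 10 and 5 of 16 peaks lay within 1 kb (26.3, 30 and 31.2%), and their median distances were 20.2, 19.1 and 17.1 kb.

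**Figure D2:**
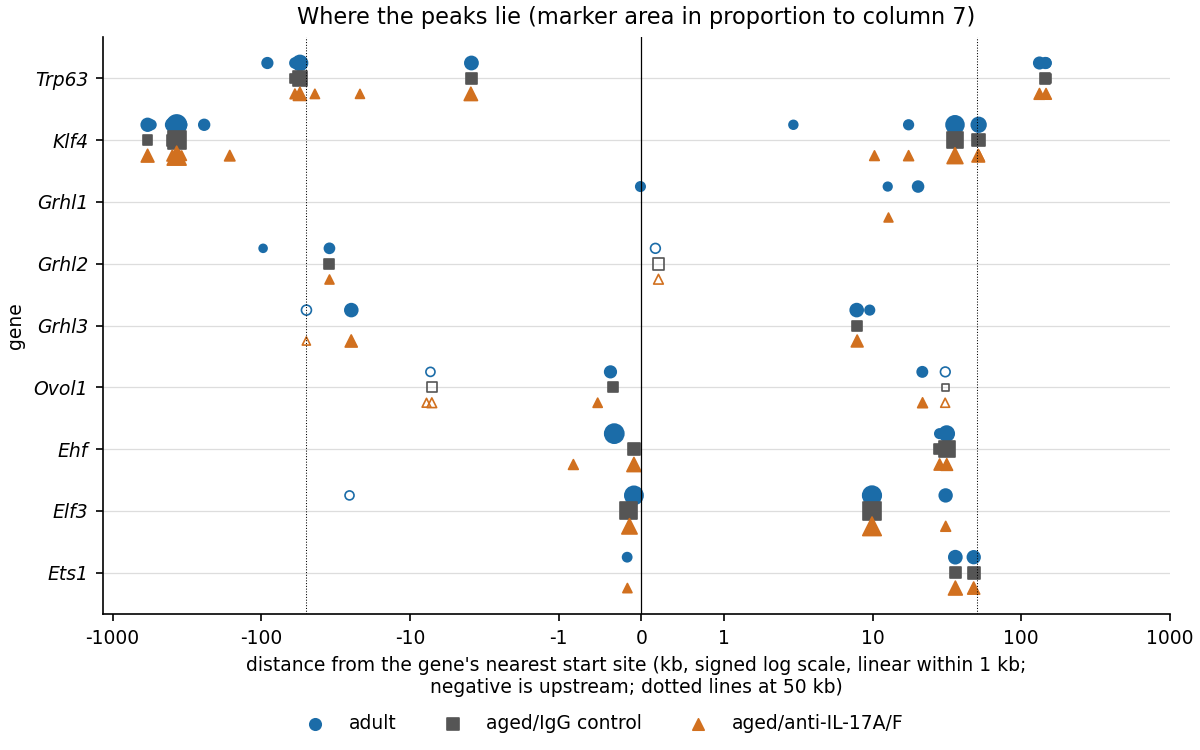
Distance of each p65 peak from the nearest start site of the gene (x axis, kb, signed log scale that is linear within 1 kb, negative upstream) for the 9 genes (rows), with list by colour and shape and marker area in proportion to fold enrichment. Filled markers are peaks assigned to the gene and open markers are peaks within 50 kb that another gene owns. The strongest Klf4 peaks lie 371 kb upstream and 35.8 kb downstream, and those of Ehf and Elf3 include the start site.

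The strength of a peak is given below as the authors' fold enrichment, the ratio of fragments at the summit to the local background, and as its percentile within its own list, where 100 is the strongest. The lists differ in length, so a percentile gives a place within its own list. For loci called in all lists, the rank below is the percentile among those loci alone, which are the same in each list. Fold enrichment medians over the whole lists were 3.60 in adult, 3.80 in IgG control and 3.69 in anti-IL-17A/F. For the assigned peaks of the 9 genes they were 4.06, 4.07 and 3.70, with ranges of 2.05 to 12.7, 2.75 to 11.1 and 2.59 to 11.8. In the highest decile of each list by fold enrichment were 7 of the 38 adult peaks, 5 of the 21 IgG control peaks and 4 of the 34 anti-IL-17A/F peaks. All of these belonged to Klf4, Ehf, Elf3 and Trp63.

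**Figure D3:**
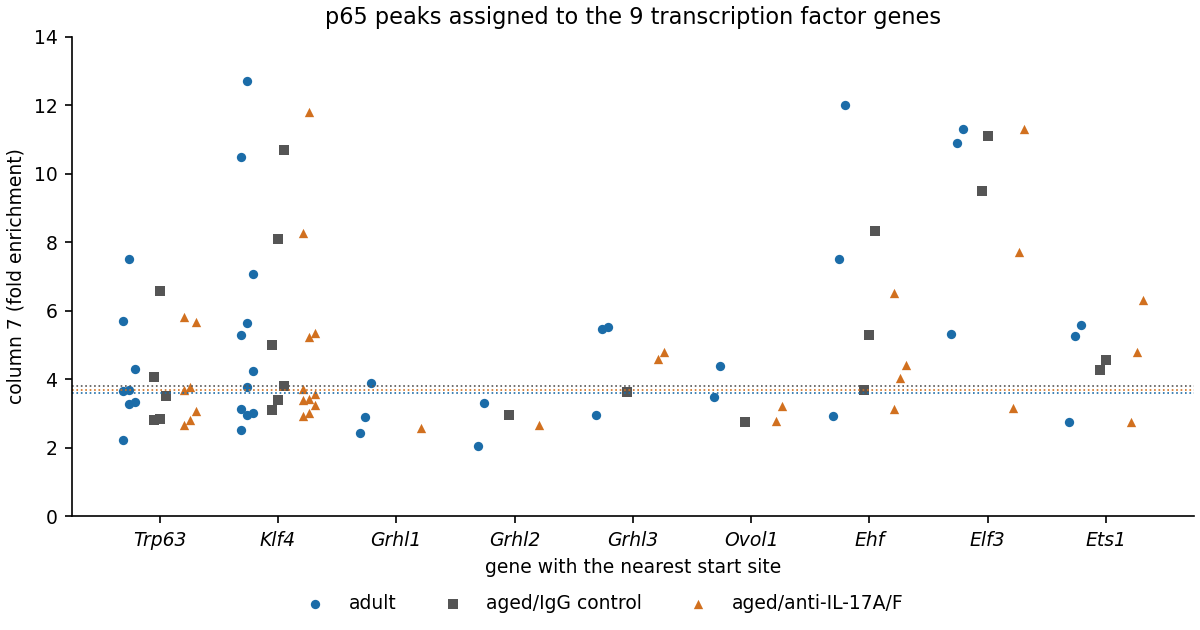
Fold enrichment (y axis, column 7 of the lists) of every peak assigned to the 9 genes, by list. Dotted lines are the medians of the whole lists (3.60, 3.80 and 3.69). Klf4, Ehf and Elf3 hold the peaks above 8, and the peaks of Grhl1 and Grhl2 lie between 2.05 and 3.88.

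Klf4, a zinc-finger factor of the suprabasal layers, had 13 loci on chromosome 4, of which 6 were called in all 3 lists. The strongest lay 371 kb upstream in intergenic DNA (55902699 to 55903582), with a fold enrichment of 12.7 in adult, 10.7 in IgG control and 11.8 in anti-IL-17A/F. By rank it was at 95.9, 97.7 and 96.9, highest in IgG control, where fold enrichment was lowest. It is the locus of the Klf4 sequence shown above, and its summits also had matches to AP-1 and the p53-family consensus. A locus 35.8 kb downstream (55496277 to 55497041) had values of 10.5, 8.11 and 8.28, at rank 92.2, 92.5 and 89.5. A locus 51.7 kb downstream had 7.07, 4.99 and 5.23.

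The other Klf4 loci called in all lists lay 354, 397 and 581 kb upstream. The last had a fold enrichment of 5.29 in adult, 3.09 in IgG control and 5.36 in anti-IL-17A/F. IgG control was thus lower than both adult and anti-IL-17A/F. At 397 kb the values were 5.63, 3.80 and 3.72, where adult stood above both aged lists. Loci 17.5 kb downstream and 343 kb upstream were called in adult and anti-IL-17A/F only, with values of 2.93 to 3.26. Of the remaining 5 loci, 3 were called in adult only (2.53, 3.77 and 2.95 at 2.93 kb downstream in the intron and 242 and 550 kb upstream) and 2 in anti-IL-17A/F only (3.03 and 3.57 at 10.3 kb downstream and 163 kb upstream). None of the 13 lay over the Klf4 start site.

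For Trp63, the 10 loci on chromosome 16 fell into 3 stretches, with 2 upstream of the first start site, 4 in introns between the first and the internal start site and 4 beyond the end of the gene. The strongest was intronic, 54.9 kb upstream of the internal start site (25746668 to 25747261), with a fold enrichment of 7.52 in adult, 6.59 in IgG control and 5.66 in anti-IL-17A/F. By rank it was at 78.9, 86.0 and 68.5, so that the order of adult and IgG control depended on the measure. The Trp63 sequence shown above is from this locus. The intronic locus nearest to the internal start site, 3.9 kb upstream of it (25797784 to 25798320), had 5.69, 4.07 and 5.81, so that IgG control was the lowest. It too had a match to the NF-κB consensus.

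The other Trp63 loci were weaker, with fold enrichments from 2.22 to 4.30. Those called in all 3 lists lay 59.4 kb upstream of the first start site (3.29, 2.83 and 3.07) and 147 kb downstream of the internal one (3.34, 2.82 and 3.69). A locus at 133 kb downstream was called in adult (4.30) and anti-IL-17A/F (3.78). A locus 144 kb downstream was the only one of the 42 called in adult (2.22) and IgG control (3.50) but not in anti-IL-17A/F. A peak 145 kb downstream was called in adult only (3.70), although IgG control had a peak 1055 bp away and anti-IL-17A/F one 964 bp away. Another in adult only lay 91.0 kb upstream (3.66), and the 2 called in anti-IL-17A/F only lay in introns 43.6 and 21.7 kb upstream of the internal start site (2.81 and 2.67).

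Ehf and Elf3, the epithelial ETS genes, had peaks at their start sites in every list. At the Ehf start site on chromosome 2 (103302909 to 103304218), fold enrichment was 12.0 in adult, 5.29 in IgG control and 6.53 in anti-IL-17A/F. Adult was above both aged lists by rank too, at 95.3 against 74.1 and 78.9. A match to the NF-κB consensus was within 100 bp of the summit in each of them. The adult peak there was 1228 bp wide, whereas IgG control had a peak of 571 bp and anti-IL-17A/F peaks of 506 and 401 bp. In the Ehf intron 31.5 kb downstream the order differed, with 7.52 in adult, 8.34 in IgG control and 4.42 in anti-IL-17A/F. A weaker intronic locus 28.2 kb downstream, which holds the Ehf sequence shown above, had 2.92, 3.70 and 4.03. Adult was the lowest there by rank too, at 4.22 against 38.0 and 36.7.

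At Elf3 on chromosome 1, the locus 9.91 kb downstream (135248172 to 135248965) had a fold enrichment of 11.3 in adult, 11.1 in IgG control and 11.3 in anti-IL-17A/F. In IgG control it was the strongest peak of the 9 genes, at place 67 of the 4169 peaks of its list. By rank it was at 93.9, 98.1 and 96.4. At the Elf3 start site (135258212 to 135258968), the locus of the promoter shown above, the values were 10.9, 9.51 and 7.71, lowest in anti-IL-17A/F. A locus 31.0 kb downstream was called in adult (5.32) and anti-IL-17A/F (3.17), and the nearest IgG control peak lay 20572 bp away.

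The third ETS gene, Ets1 on chromosome 9, had 2 intronic loci in all lists. The locus 36.0 kb downstream of the second start site had 5.59 in adult, 4.26 in IgG control and 6.32 in anti-IL-17A/F, and that 47.9 kb downstream had 5.27, 4.57 and 4.80. By fold enrichment IgG control was lowest in both. By rank it was lowest at 36.0 kb (56.4, 54.6 and 76.4), but highest at 47.9 kb (51.3, 62.1 and 54.1). A peak over the second start site was called in adult (2.75) and anti-IL-17A/F (2.75), at percentile 14.6 and 12.8, and not in IgG control.

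Of the grainyhead-like genes, Grhl3 had the strongest assigned peak in every list. Grhl3, which acts in barrier formation and wound closure, had an intronic locus 7.82 kb downstream of its start site with a fold enrichment of 5.52 in adult, 3.64 in IgG control and 4.60 in anti-IL-17A/F. A locus 24.8 kb upstream (135598134 to 135598740 on chromosome 4), from which the Grhl3 sequence is printed, had 5.47 in adult and 4.81 in anti-IL-17A/F. This was the strongest of the 8 loci called in adult and anti-IL-17A/F and not in IgG control. The nearest IgG control peak was 32091 bp away. An adult peak of 2.96 lay in the intron 9.57 kb downstream.

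Grhl1, a regulator of desmosomal genes, had 3 adult peaks, over the first start site (2.90) and in introns 12.6 kb (2.42) and 20.2 kb (3.88) downstream of the second start site. Of these, only the one at 12.6 kb was called in anti-IL-17A/F (2.59), and none in IgG control, whose nearest peak was 50266 bp or more from each. Grhl2 had a locus 34.8 kb upstream in all lists (3.31 in adult, 2.97 in IgG control and 2.67 in anti-IL-17A/F) and an adult peak 97.2 kb upstream that, at 2.05 and percentile 0.334, was among the weakest of its list. Ovol1 had a peak just upstream of its start site on chromosome 19 in all lists, with 4.38 in adult, 2.75 in IgG control and 2.79 in anti-IL-17A/F. Adult was the highest there, at rank 32.9 against 6.11 and 6.41. An Ovol1 locus 21.6 kb downstream was called in adult (3.47) and anti-IL-17A/F (3.21).

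Some peaks within 50 kb of the 9 genes belonged to a neighbour by the assignment rule. There were 27 peaks within 50 kb in adult, 15 in IgG control and 27 in anti-IL-17A/F, of which the 9 genes owned 22, 12 and 22. A locus at the Grhl2 start site was owned by Gm16136, which starts 123 bp away, with a fold enrichment of 3.11 in adult, 4.53 in IgG control and 3.09 in anti-IL-17A/F. Here IgG control was the highest, and the anti-IL-17A/F peak began just downstream of the Grhl2 start site, which the other two covered. Around Ovol1, a locus 30.8 kb downstream was owned by Snx32 (3.07, 1.91 and 2.68) and one 7.11 kb upstream by Ap5b1 (2.70, 3.41 and 3.08), which also owned a further anti-IL-17A/F peak (2.58). A locus 49.7 kb upstream of Grhl3 was owned by 1700029M20Rik and called in adult (3.26) and anti-IL-17A/F (2.19), and an adult peak of 2.66 upstream of Elf3 was owned by Rnpep. At the edge of the 50 kb limit, the Ets1 intronic peaks lay just inside, at 47815 to 47871 bp, and the Klf4 peaks just outside, at 51381 to 51658 bp.

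The question put to the 3 lists is which places p65 occupied in adult, aged and antibody-treated aged epidermis. Of the 42 loci of the 9 genes, 20 were called in all lists (36.6% of all loci were), 9 in adult only (31.6%), 8 in adult and anti-IL-17A/F (17%), 4 in anti-IL-17A/F only (8.01%) and 1 in adult and IgG control (3.91%). No locus was called in IgG control only (1.84%) or in IgG control and anti-IL-17A/F without adult (1.05%). Loci in adult and anti-IL-17A/F but not IgG control were 2 at Klf4 and 1 each at Trp63, Grhl1, Grhl3, Ovol1, Elf3 and Ets1. A count of 0 among 42 is read against shares of 1 to 2% over all loci.

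Of the 38 adult peaks, 21 overlapped a peak of IgG control (55.3%), against 45.5% of all adult peaks. Strong adult peaks were found again more often, and the shares in the same deciles of fold enrichment correspond to 20.8 of the 38. Aged/anti-IL-17A/F had 28 of the 38 (73.7%), against 60.4% of all adult peaks and 25.5 peaks by deciles. In the other direction, 21 of the 21 IgG control peaks overlapped an adult peak (93.3% of the list did) and 20 of the 21 an anti-IL-17A/F peak (86.6%). Of the 34 anti-IL-17A/F peaks, 30 overlapped an adult peak (85.6%) and 20 an IgG control peak (59.9%). The numbers for the 9 genes lay within 3 peaks of those of like strength in the whole lists in all 6 directions.

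**Figure D4:**
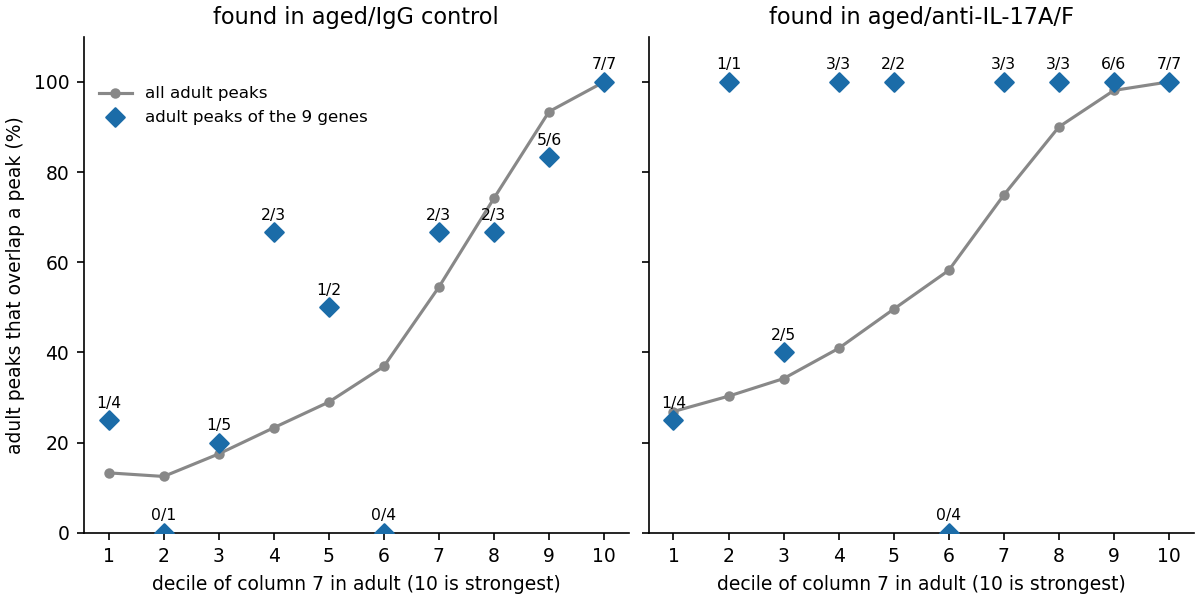
Share of adult p65 peaks that overlap a peak of IgG control (left) or anti-IL-17A/F (right), in percent, by decile of fold enrichment in adult. The grey line is all 8525 adult peaks and diamonds are the 38 peaks of the 9 genes, with the number found over the number in the decile. All 7 in the highest decile were found in both aged lists.

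Which loci were called in which list went with their strength. The 9 loci called in adult only had fold enrichments of 2.05 to 3.88 there (median 2.96, all adult-only loci 3.03). The 8 called in adult and anti-IL-17A/F had 2.42 to 5.47 in adult (median 3.29, all such loci 3.45), and the 20 called in all lists 2.92 to 12.7 (median 5.61, all such loci 5.19). The 4 loci in anti-IL-17A/F only had 2.67 to 3.57 (median 2.92, all such loci 2.98). The part of the calling threshold in these absences was not tested.

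At loci called in both lists of a pair, the fold enrichments were divided and set relative to the median locus, since the median ratio itself was 0.812 for IgG control over adult, 1.10 for anti-IL-17A/F over IgG control and 0.900 for anti-IL-17A/F over adult. For IgG control over adult, 3 of the 21 loci were at or above 5/4 of the median locus (19.6% of all 3858 were) and 3 at or below 4/5 of it (19.2%). The higher ones were the Trp63 locus at 144 kb (1.95) and the Ehf loci at 28.2 kb (1.56) and 31.5 kb (1.37), and the lower ones were the start site of Ehf (0.542), the Klf4 locus at 581 kb (0.719) and the locus just upstream of Ovol1 (0.772). The median over the 21 was 1.04.

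For anti-IL-17A/F over IgG control, 3 of the 20 loci were higher by this measure (17.9% of all 3586) and 3 lower (18.1%). Those higher were the Klf4 locus at 581 kb (1.57), the Ets1 locus at 36.0 kb (1.34) and the Trp63 locus at 3.9 kb (1.29), and those lower the Ehf locus at 31.5 kb (0.480), the Elf3 start site (0.734) and the Trp63 locus at 54.9 kb (0.778). For anti-IL-17A/F over adult, 2 of the 28 were higher (18.7% of all 5102) and 6 lower (18.4%). Each list enters 2 of these comparisons, so that their counts are not independent of each other. The 6 lower loci were those at or just upstream of the start sites of Ehf (0.604), Ovol1 (0.708) and Elf3 (0.787), the Ehf locus at 31.5 kb (0.653), the Elf3 locus at 31.0 kb (0.662) and the Klf4 locus at 397 kb (0.734). The higher ones were at Ehf (1.54) and Ets1 (1.26). The shares of the 21 and 20 loci were close to those of all loci, and how far such ratios vary between animals is unknown.

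**Figure D5:**
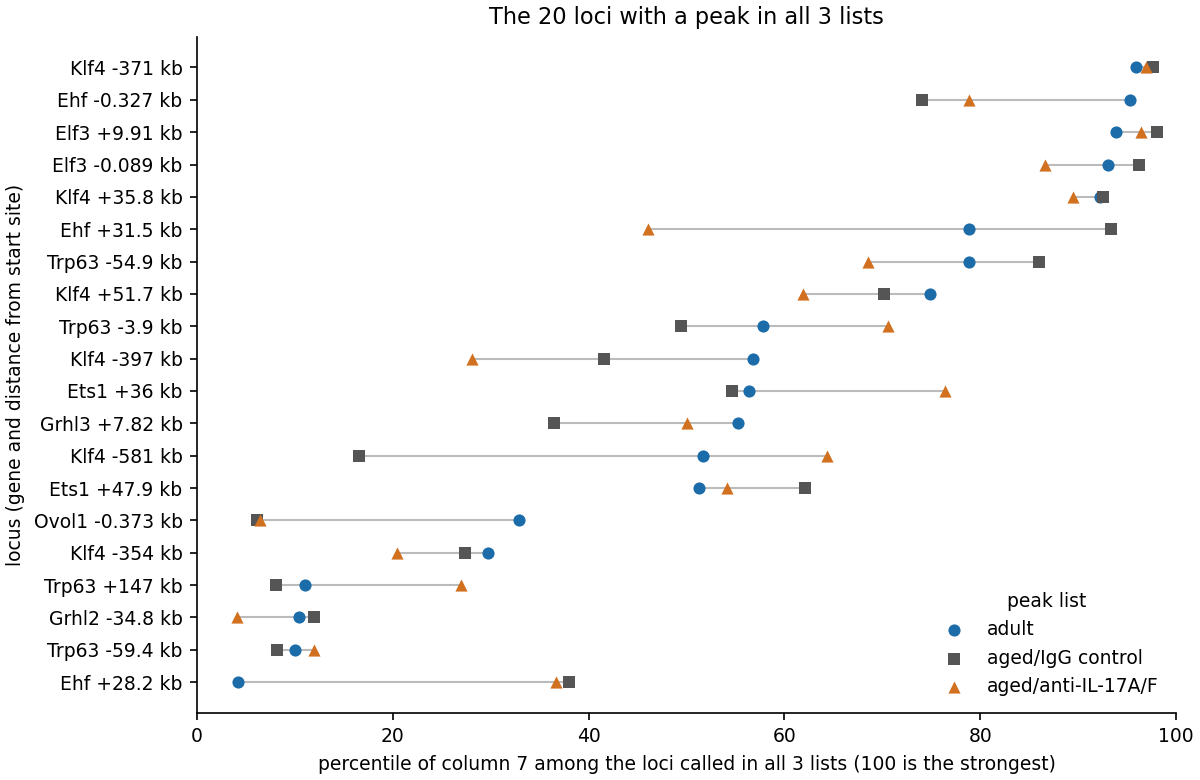
Rank of fold enrichment (x axis, percentile among the loci called in all 3 lists, 100 is the strongest) for the 20 loci of the 9 genes called in all lists (rows, named by gene and distance from the start site, ordered by adult), with list by colour and shape. The Klf4 locus at 371 kb is at 95.9 in adult, 97.7 in IgG control and 96.9 in anti-IL-17A/F, while the locus just upstream of Ovol1 spans 6.11 in IgG control to 32.9 in adult.

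Short motifs were searched on either strand in the 201 bases centred on each summit. The NF-κB consensus was found at 15 of the 42 loci (35.7%), against 29.8% of all loci, with 4 each at Klf4 and Trp63, 2 each at Ehf and Elf3 and 1 each at Grhl3, Ovol1 and Ets1. By list it was at 14 of 38 adult peaks, 8 of 21 IgG control peaks and 12 of 34 anti-IL-17A/F peaks (36.8, 38.1 and 35.3%, whole lists 28.5, 37.8 and 34.9%). Of the 20 loci called in all lists 8 had a match (45.7% of all such loci), and of the 9 called in adult only 4 had one (15.1% of all such loci). Of 32851 RefSeq promoters of 300 bases, a longer window than that around a summit, 4.51% had a match.

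The AP-1 motif (TGANTCA) was found at 7 of the 42 loci (16.7%, all loci 15.3%, promoters 7.81%), among them the strong Klf4 and Elf3 loci and the Ehf locus at 31.5 kb. The ETS motif (GGAAGT) was at 8 (19.0%, all loci 19.8%, promoters 23.8%), and the p53-family consensus at 3 (7.14%, all loci 8.20%, promoters 7.22%), at Klf4, Grhl2 and Ehf. The grainyhead motif (AACCGGTT) was at 0 of the 42 and at 0.42% of all loci. The KLF motif (GGGNGNGG), which is rich in G, was at 12 of the 42 (28.6%) against 45.2% of all loci and 49.5% of promoters. The peaks of the 9 genes had a lower median GC content than their lists (51.0 against 54.7% in adult, 49.3 against 53.7% in IgG control and 49.8 against 53.7% in anti-IL-17A/F) and lay at start sites less often, and the part of these in the KLF share was not tested. A match is a string of letters and does not show which factor was bound.

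A list of 36 further transcription factor genes of the epidermis gave a wider view. Of these, 21 had an assigned peak in adult, 16 in IgG control and 21 in anti-IL-17A/F, with 68, 27 and 43 peaks. In all 3 lists 15 had one, and 13 had none in any list. Cebpb (2.43, percentile 3.51) and Foxn1 (3.30, percentile 36.5) had their peak in anti-IL-17A/F and in no other list. The 5 with the highest fold enrichment were Runx1 (12.1 in adult, 10.4 in IgG control and 8.38 in anti-IL-17A/F), Tcf7l1 (10.5, 10.4 and 11.2), Tfap2b (8.46, 6.75 and 7.01), Gata3 (8.18, 4.92 and 6.89) and Hopx (7.97, 6.68 and 5.34). The AP-1 genes Fos, Fosb, Fosl1, Fosl2, Jun, Junb and Jund, often induced together with NF-κB targets, had a peak in all 3 lists in 7 of 7 cases, with 33, 21 and 31 peaks.

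The labelled cell type was set beside marker genes, although a peak at a gene is no measure of its expression. Of 6 keratinocyte markers, 6 had an assigned peak in adult, 2 in IgG control (Krt1 and Krt10) and 4 in anti-IL-17A/F. Among all protein-coding genes, 23.0, 12.9 and 17.4% had one in these lists, of which IgG control is the shortest. Of 14 markers of other cell types, 13 were in the annotation (Trac was not), and of these 2 had one in adult and in anti-IL-17A/F (Pdgfra and Pecam1) and 1 in IgG control (Pecam1), whereas those of T cells, leukocytes, Langerhans cells, macrophages and melanocytes had none in any list. The other endothelial marker, Cdh5, and the fibroblast markers Col1a1 and Col1a2 also had none. Pecam1, an endothelial gene, had 3 peaks in every list, the highest at 18.6, 11.2 and 15.8 (percentile 99.8, 98.5 and 99.7), above every assigned peak of the 9 genes in the same list. Krt1, a keratin of the suprabasal layers, had 6.00, 3.74 and 4.50. Whether cells other than keratinocytes gave any of the peaks described here was not tested.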

How the data were processed

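The authors trimmed the p65 ChIP–seq reads with Trimmomatic 0.36, aligned them to mm10, merged and deduplicated the 4 mice of a condition, downsampled the pools and ran MACS2 on them (q value 0.01, fragment length 300). Whether the 3 input libraries entered peak calling is not stated. They were not used here. The deposited lists give, per peak, a fold enrichment (a ratio to local background), −log10 p and −log10 q, a score and the summit offset. The score and −log10 p were not used.

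Here, peaks were assigned by the nearest start site among curated RefSeq transcripts of GRCm38.p6 (26180 genes). Lists were compared by an overlap of at least 1 bp. Percentiles, loci, ratios and motif matches were computed with Python 3.11.15, numpy 2.4.6, pandas 2.3.3 and pysam 0.24.0, and figures with matplotlib 3.10.9. Overlaps were checked against bedtools 2.31.1. The overlap, nearest start site and motif search steps were tested on simulated data, and the other steps were not. No p-values were computed. The genes and lists were chosen with earlier results of these data known. Named genes were the 9, owners of other peaks within 50 kb, and, of the 36 further factors, the 5 strongest and those bound in exactly 1 list. A result that this rule would name is not reported here. Sequences were taken from the strongest assigned peak with an NF-κB consensus match, leaving out promoters without an entry in the RefSeq table. Distances are from the middle of a locus's strongest peak, and several Klf4 peaks lie far from any gene, so that the assignment says only which start site is nearest. Alternatives covered the annotation, thresholds, overlap rules, motif windows and swapped labels for the lists whose peak names begin with "Treated".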

Additional observations from a re-analysis of the deposited data

How the results depend on the processing

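The counts for the 9 genes and for the 36 further factors were recomputed under other settings. Of 121 values, 94 stayed within 1.5 times of those reported. The 121 include those with exchanged labels, which only put reported counts in each other's place. With predicted transcripts added to the annotation, which places start sites of predicted genes nearer to many peaks, assigned peaks numbered 22 for adult, 11 for IgG control and 20 for anti-IL-17A/F, and 5 of the 9 genes had a peak in IgG control. With the 4169 strongest peaks of each list, 23 peaks were assigned in adult, 21 in IgG control and 24 in anti-IL-17A/F. In the same order, 13, 15 and 14 lay within 50 kb. At this length, 18 adult peaks were found in anti-IL-17A/F and 19 the other way. Grhl2 then had no peak in adult, and Grhl1 and Grhl2 none in anti-IL-17A/F. At a −log10 q of at least 10, 14 anti-IL-17A/F peaks lay within 50 kb, and Grhl1, Grhl2 and Ovol1 had no peak in either aged list. Within 10 kb lay 12, 8 and 11 peaks in the same order, and within 100 kb 45 in adult and 26 in IgG control.

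The counts of ratios are small and moved with most settings. Lower loci for IgG control over adult were 9 without centring, 1 at 1.5-fold and 5 by a shift of 10 percentile points. The shift was counted only at the 20 loci called in all lists. The other counts cover loci called in both lists of a pair. For anti-IL-17A/F over IgG control, higher loci were 5, 1 and 5 and lower loci 1 without centring and 1 at 1.5-fold. For anti-IL-17A/F over adult, higher loci were 1, 1 and 5 and lower loci 3 at 1.5-fold. Exchanging the labels of adult and anti-IL-17A/F left the counts of genes with a peak, of assigned peaks and of shared peaks within 1.5 times. By construction it also turns 2 higher and 6 lower loci for anti-IL-17A/F over adult into 6 higher and 2 lower, and 9 loci in adult only into 4. The lists give no read depth per peak, so that an absent peak can mean weak or no signal. No paired analysis was possible because each condition has 1 pooled list. No sample met the rules for a closer look, since no group has replicates.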
